A study of Mus musculus with 12 samples.

Results

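The combinations of 4 histone H3 methylation marks were examined in mouse small intestinal crypts. The marks were H3K4me3, H3K4me1, H3K27me3 and H3K9me3, and the peak list of each in crypts was used, which came from 4 of the 12 samples of the series. The lists held 16489, 54642, 7611 and 2126 peaks. Peaks of different marks were compared by overlap of at least 1 bp, and each of 21853 protein-coding genes was placed in 1 of 16 combinations by the marks with a peak within 1 kb on either side of any of its start sites (GRCm38). In this way every gene was assigned, 14751 of them to a combination with at least 1 mark (67.5%, 95% Wilson interval 66.9 to 68.1). The study dealt with the clipping of histone H3 tails by proteases in villi and compared villi with crypts, and only the crypts are described here.

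Crypts are the epithelial pockets that hold the stem cells, the dividing progenitors and the Paneth cells of the gut, along with the secretory cells that arise there. They were released with EDTA after the villi had been scraped off. No genotype, strain, sex, age or number of animals is given in the labels, and no treatment is stated. Each mark was measured in 1 library of crosslinked chromatin with added fly chromatin, with peaks called against the crypts input, so no difference described below has a replicate check. The lists hold no read counts and the sequencing depth is unknown. The peaks are numbered, and the numbers skip: the H3K4me3 list holds 92.4% of the numbers up to its highest, H3K4me1 79.8%, H3K27me3 46.9% and H3K9me3 31.1%. The filter behind this is not given in the sources used here, so a missing peak means only that none is in the list. Intervals are given for counting error only. A crypt preparation is a mixture of cells, and marks found at the same promoter on the same molecule, on different alleles or in different cells cannot be told apart.

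H3K4me3 is placed at start sites, mostly where DNA is rich in CpG dinucleotides, and is found at genes that are transcribed or poised. H3K4me1 is best known from enhancers and from the flanks of active promoters. H3K27me3 is written by Polycomb repressive complex 2 over silent developmental genes, and a promoter with both H3K4me3 and H3K27me3 is called bivalent. H3K9me3 belongs to constitutive heterochromatin, to silenced repeats and to the silent copy of imprinted genes.

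The crypts lists differed in extent. H3K4me1 covered 3.79% of the assembled genome, H3K4me3 1.11%, H3K27me3 0.765% and H3K9me3 0.0957%. Median peak widths lay between 884 bp, for H3K9me3, and 1793 bp, for H3K27me3, with H3K4me1 at 1336 bp and H3K4me3 at 1584 bp. Each peak carries a score on a −log10 scale from the peak caller. All 4 lists started at a score of 10, which is the −log10 of the p-value cutoff given for peak calling, but the lists do not name the scale, and it may be a p-value or a q-value. The median score was 173.5 for H3K4me3 and between 12.8 and 19.7 for the other marks. Scores grow with depth and with the sharpness of a signal, so levels are compared below only within a mark. Genes with several marks were listed by the lowest of their scores, an order that does set marks side by side. Most of the marked genome carried a single mark. Of 132.7 Mb under any peak, 85.8% lay under 1 mark, 13.4% under 2 and 0.775% under 3, and only 134 bp lay under all 4.

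At promoters the commonest combination was H3K4me3 with H3K4me1, found at 10128 genes (46.3%, 45.7 to 47). No mark was found at 7102 genes, which is 32.5% of those tested. With the better-scoring 50% of each list the order of these turned, with 5210 genes (23.8%) and 9161 genes (41.9%). H3K4me3, H3K4me1 and H3K27me3 together marked 1328 genes (6.08%, 5.77 to 6.4). H3K4me3 alone was found at 1013 genes, H3K27me3 alone at 936, H3K4me1 alone at 685, H3K4me1 with H3K27me3 at 474 and H3K4me3 with H3K27me3 but without H3K4me1 at 104. The remaining combinations all held H3K9me3 and took 83 genes between them. Counted by mark, 57.7% of genes carried H3K4me3, 57.9% carried H3K4me1, 13.1% carried H3K27me3 and 0.38% carried H3K9me3.

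**Figure D1:**
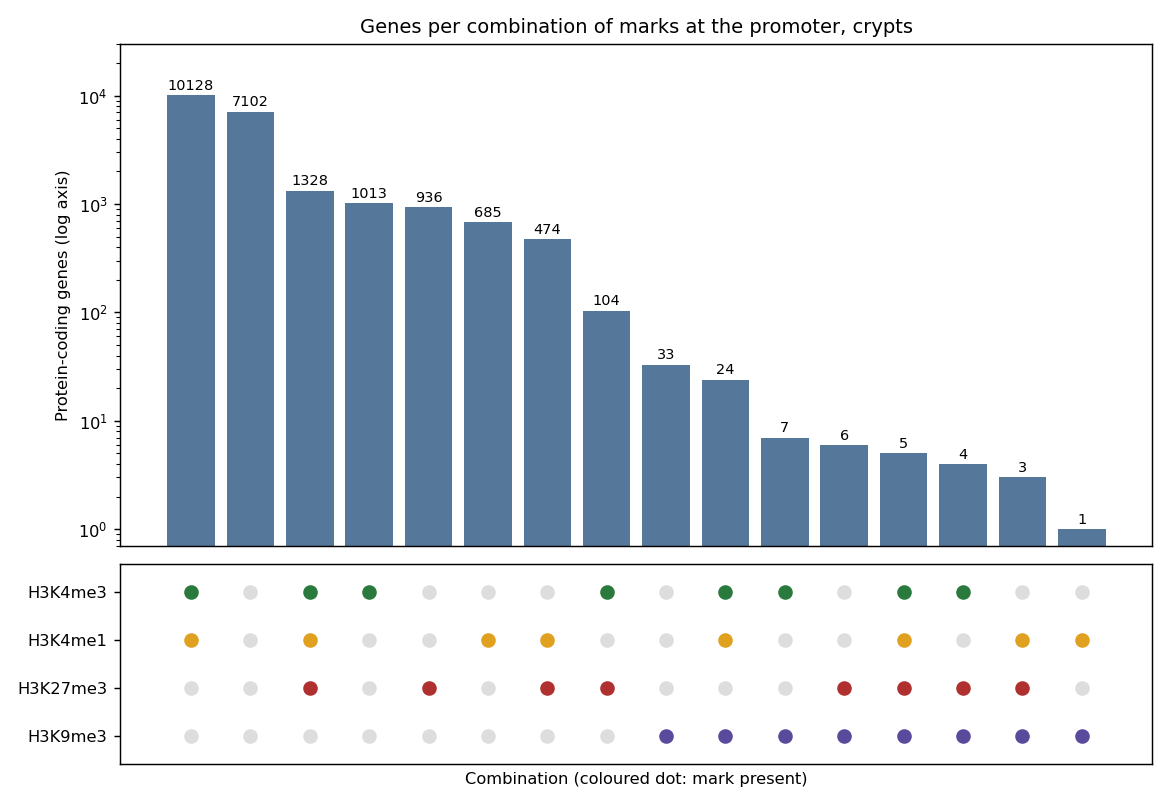
Number of protein-coding genes in each combination of marks at the promoter in crypts, on a log axis, with the marks of each combination shown as coloured dots under its bar. H3K4me3 with H3K4me1 leads with 10128 genes, and every combination with H3K9me3 holds 33 genes or fewer.

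The combinations differed in promoter sequence, which the rule did not use. The observed over expected CpG ratio of the window around the most upstream start site had a median of 0.621 where H3K4me3 and H3K4me1 were found together, 0.625 with H3K27me3 added and 0.617 with H3K4me3 alone. It was lower at 0.508 with H3K27me3 alone and 0.519 with H3K4me1 and H3K27me3. Promoters with H3K4me1 alone had a median of 0.225, close to the 0.168 of promoters with no mark. To show this, a promoter is printed for each of the 6 commonest combinations, from 250 bases before to 50 bases after the RefSeq start site (GRCm38.p6), with every CpG in capitals. Each is the gene, among those of all gene lists drawn up here, whose CpG ratio lay nearest to the median of its combination. RefSeq promoters were matched by symbol for 16531 genes.

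The first is Slc2a1, the glucose transporter GLUT1, with H3K4me3 and H3K4me1 (chr4:119108495-119108794, plus strand), which held 18 CpGs. Wnt9b, a Wnt ligand with H3K4me3, H3K4me1 and H3K27me3, lies at chr11:103749772-103750071 on the minus strand and held 29. Zfp2, a zinc finger gene with H3K4me3 alone, lies at chr11:50916127-50916426 on the minus strand and held 13. Hoxa10, a body patterning gene with H3K27me3 alone, lies at chr6:52240805-52241104 on the minus strand and held 12. Avil, the tuft cell gene for advillin with H3K4me1 alone, lies at chr10:127000459-127000758 on the plus strand and held 2. Vmn1r126, a pheromone receptor gene with no mark, lies at chr7:21301418-21301717 on the minus strand and held 4. The runs of capitals show the contrast between the CpG-rich promoters and those of Avil and Vmn1r126.
Slc2a1: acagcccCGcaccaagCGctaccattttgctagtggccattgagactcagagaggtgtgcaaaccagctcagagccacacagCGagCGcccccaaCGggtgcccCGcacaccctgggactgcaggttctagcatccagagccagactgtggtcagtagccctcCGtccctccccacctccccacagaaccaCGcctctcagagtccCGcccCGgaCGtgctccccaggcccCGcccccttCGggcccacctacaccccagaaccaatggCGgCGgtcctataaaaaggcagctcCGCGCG
Wnt9b: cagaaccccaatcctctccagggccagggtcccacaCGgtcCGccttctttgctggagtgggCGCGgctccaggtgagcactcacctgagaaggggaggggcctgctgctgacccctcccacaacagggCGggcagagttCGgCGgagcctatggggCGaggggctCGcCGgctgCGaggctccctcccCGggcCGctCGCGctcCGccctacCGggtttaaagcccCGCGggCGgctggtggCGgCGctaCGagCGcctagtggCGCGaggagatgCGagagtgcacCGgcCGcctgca
Zfp2: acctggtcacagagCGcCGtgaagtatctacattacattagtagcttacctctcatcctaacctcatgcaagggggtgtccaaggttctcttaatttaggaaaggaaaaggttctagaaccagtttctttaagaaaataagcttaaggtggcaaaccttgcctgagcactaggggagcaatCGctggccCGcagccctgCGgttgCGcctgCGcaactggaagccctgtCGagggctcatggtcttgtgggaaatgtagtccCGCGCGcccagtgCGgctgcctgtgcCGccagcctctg
Hoxa10: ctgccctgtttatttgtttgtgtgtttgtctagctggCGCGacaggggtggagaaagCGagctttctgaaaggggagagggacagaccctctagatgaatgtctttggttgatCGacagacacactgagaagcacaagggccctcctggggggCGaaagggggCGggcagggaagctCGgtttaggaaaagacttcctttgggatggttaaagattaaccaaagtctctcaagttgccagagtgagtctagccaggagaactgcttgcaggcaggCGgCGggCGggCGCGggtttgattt
Avil: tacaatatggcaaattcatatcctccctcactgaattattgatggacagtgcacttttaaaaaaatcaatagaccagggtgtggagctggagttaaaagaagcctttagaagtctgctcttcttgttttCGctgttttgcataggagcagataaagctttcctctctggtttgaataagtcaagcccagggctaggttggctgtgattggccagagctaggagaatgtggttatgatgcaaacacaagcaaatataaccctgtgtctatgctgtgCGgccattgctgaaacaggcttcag
Vmn1r126: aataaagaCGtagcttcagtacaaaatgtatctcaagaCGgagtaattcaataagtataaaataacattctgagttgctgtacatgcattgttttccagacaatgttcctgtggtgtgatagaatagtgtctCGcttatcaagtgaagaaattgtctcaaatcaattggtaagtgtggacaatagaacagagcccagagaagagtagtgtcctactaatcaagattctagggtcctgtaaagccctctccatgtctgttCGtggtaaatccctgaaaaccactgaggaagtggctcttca

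Over all RefSeq promoters of a combination the median number of CpGs in these 300 bases was 21 for H3K4me3 with H3K4me1, 22 with H3K27me3 added, 19 for H3K4me3 alone, 15.5 for H3K27me3 alone, 5 for H3K4me1 alone and 3 for no mark. Read the other way, H3K4me3 was found at 89.4% of the 10687 high CpG promoters (88.8 to 89.9), at 50.3% of the 4151 intermediate and at 13.9% of the 7015 low CpG promoters (13.1 to 14.7). The type is that of the most upstream start site, and marks were counted at any start site. A high CpG promoter has a 500 bp window with a CpG ratio of at least 0.75 and a GC content of at least 55%, and a low one has no window with a ratio of at least 0.48. H3K27me3 was about as common at high (17.7%, 17 to 18.5) as at intermediate CpG promoters (17.3%, 16.2 to 18.5) and was found at 3.51% of low ones. Only 316 high CpG promoters, 2.96%, had no mark, against 77.1% of low ones.

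Of the 12613 promoters that had H3K4me3, 91.1% also had H3K4me1. This share was 76.8% with a window of 500 bp, 59.2% with the better-scoring 50% of each list and 44.5% on the X chromosome. Of the H3K4me3 peaks, 15083 overlapped an H3K4me1 peak (91.5%, 91 to 91.9), whereas 19814 H3K4me1 peaks (36.3%, 35.9 to 36.7) overlapped H3K4me3. Bases under H3K4me3 carried H3K4me1 15.3 times as often as the genome as a whole. The remaining H3K4me1 peaks lay mostly away from promoters: of the 33633 that met no other mark, 4.8% touched a promoter, 40.6% lay in introns and 43.3% outside protein-coding genes. In 71.9% of 20423 overlapping pairs neither peak contained the other, and 57.8% of all bases under H3K4me3 lay under H3K4me1. When at least 50% of each peak had to be shared, 4207 H3K4me3 peaks were left in place of 15083.

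**Figure D2:**
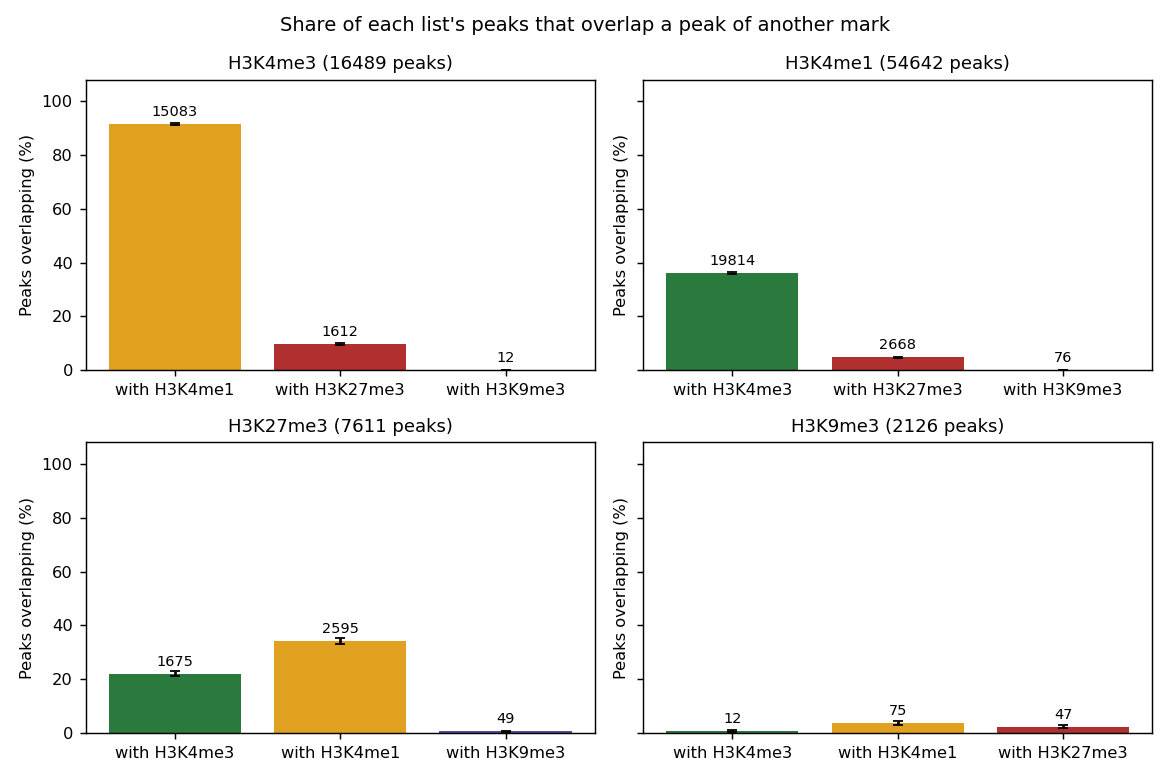
Share of the peaks of each mark that overlap a peak of each other mark, in percent, with 95% Wilson intervals as error bars and the number of peaks above each bar. H3K4me3 peaks overlap H3K4me1 in 91.5% of cases, and the H3K9me3 bars reach at most 3.53%.

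The longest shared stretch of H3K4me3 and H3K4me1 lay over Sdc4, which encodes the proteoglycan syndecan-4, and spanned 10628 bp at chr2:164430702-164441329. The next were in Thra, the thyroid hormone receptor that acts on intestinal progenitors, with 6804 bp, and in Dab2ip, a Ras GTPase-activating protein, with 6367 bp. When genes with both marks and no other were ranked by the lower of their H3K4me3 and H3K4me1 scores, the lower score of the first 5 was that of H3K4me1. Hjurp, a centromere chaperone, came first with 120.4. Cmip (106.4), the kinesin gene Kif21b (86.4), the interleukin 4 receptor Il4ra (85.7) and Pck1, which encodes a gluconeogenic enzyme (85.0), followed. The best-scoring H3K4me1 peak of Cmip was at another start site than its H3K4me3 peak, although 1 start site carried both marks. Without H3K4me1 in the window, the highest H3K4me3 scores were those of Sgpp2 (728.3), Jpt1 (710.1), Hnrnpul2 (708.6), Ier5 (708.3) and Epc2 (697.5). Among genes with H3K4me1 alone the highest H3K4me1 scores were those of Cdhr3 (74.2), Ifit1bl1 (69.6), Fam186a (65.2), Asic3 (64.5) and Car6 (63.2), of which Cdhr3 encodes a cadherin-like receptor and Car6 a carbonic anhydrase.

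Where H3K4me3 and H3K4me1 were found without H3K27me3, H3K4me1 flanked the start site. At 9556 most upstream start sites of this kind, 95.4% of the start sites themselves lay under an H3K4me3 peak but only 19.5% under H3K4me1. H3K4me1 reached its highest coverage of 54.6% at 600 bp upstream and of 68% at 1050 bp downstream. Where H3K27me3 was present too, H3K4me1 lay over the start site and H3K27me3 flanked it. At these 1118 start sites H3K4me1 covered 66.5% of the start sites and reached 80.5% at 450 bp downstream, with 45.8% at 1000 bp. H3K27me3 instead dipped to 50.9% at the start site, with 57.2% at 550 bp upstream and 81.3% at 850 bp downstream. With H3K27me3 and H3K4me1 but no H3K4me3, H3K4me1 again sat near the start site (57.3%, highest 66.4% at 200 bp downstream), and H3K27me3 covered 86.3% of start sites with no dip of that size. The same order held among genes with a single start site, where H3K4me1 covered 21.2% of start sites without and 71.7% with H3K27me3, an alternative chosen after the data were seen.

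**Figure D3:**
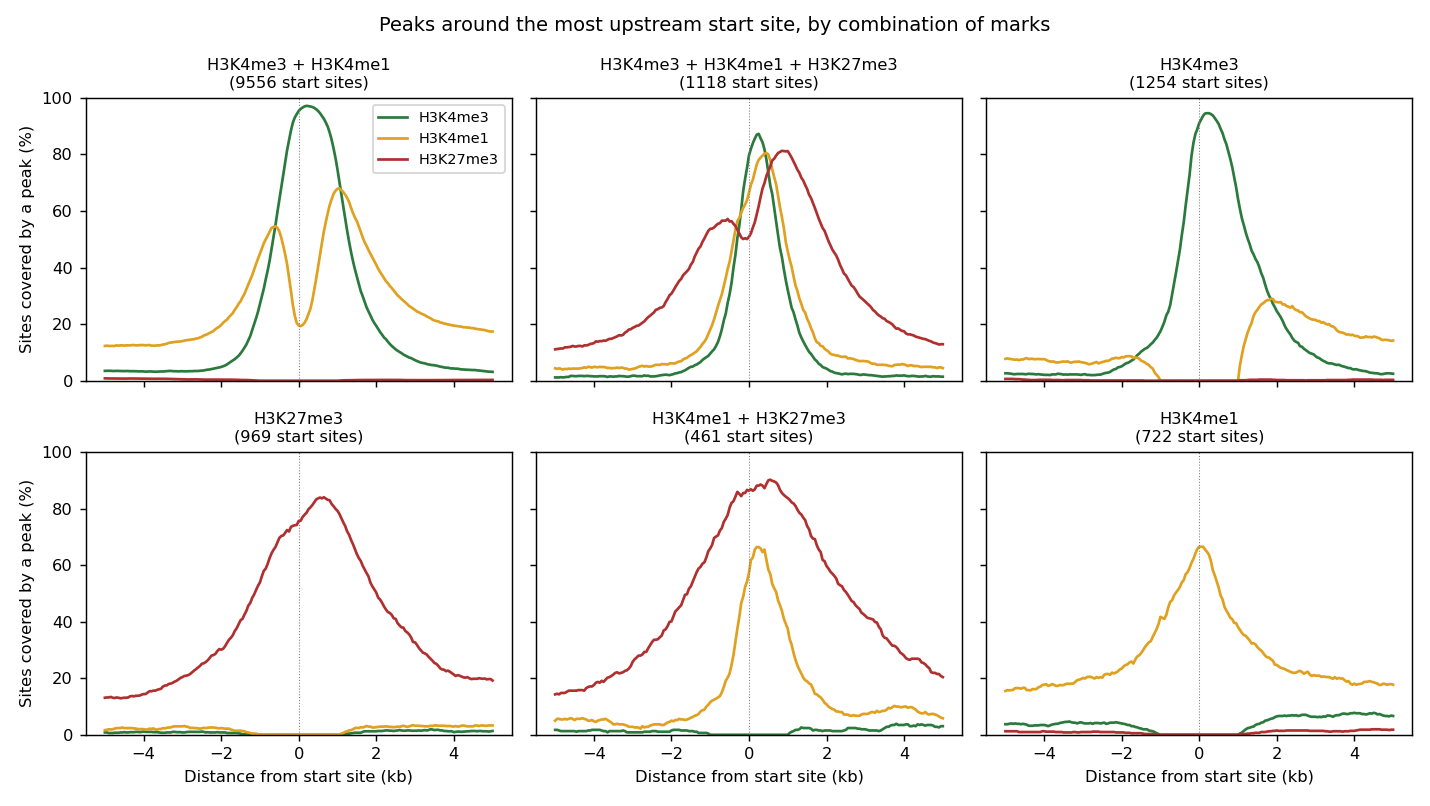
Percent of most upstream start sites covered by an H3K4me3, H3K4me1 or H3K27me3 peak against distance from the start site in kb (downstream positive), for the 6 commonest combinations with a mark, classed by the window of that start site alone. H3K4me1 dips to 19.5% at the start sites with H3K4me3 and H3K4me1 and covers 66.5% of them where H3K27me3 is added. Values are 0 within 1 kb for marks a combination lacks, by definition.

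Genes with both H3K4me3 and H3K27me3 numbered 1441, or 6.59% of all genes, and 1333 of them also had H3K4me1 (92.5%, 91 to 93.8). They made up 11.4% of H3K4me3 genes and 50.4% of H3K27me3 genes (48.6 to 52.2). At 1288 of the 1441 the peaks overlapped each other. The H3K4me3 peaks at these promoters were of low score. The median was 44.4 with H3K4me1 and H3K27me3 and 25.7 with H3K27me3 only, against 310.0 with H3K4me1 only and 239.6 for H3K4me3 alone, and the quartiles of the first pair (23.4 to 105.0 and 15.4 to 37.9) did not reach those of the second (199.6 to 413.6 and 121.9 to 366.1). They were also narrower, with medians of 1145 and 870 bp against 2091 and 1617 bp. When the H3K4me3 genes were split by score into 4 groups of equal size, 38.4% of the lowest-scoring group carried H3K27me3 (1211 of 3154, 36.7 to 40.1), followed by 4.28%, 1.97% and 1.05% of the next groups. In groups of genes made by H3K27me3 score the shares with H3K4me3 lay closer together, at 52.2%, 53.1%, 49.2% and 47% from the lowest to the highest group, and those with H3K4me1 were 54.8%, 60.4%, 64.9% and 73%. With the better-scoring 50% of each list, 85 genes held H3K4me3, H3K4me1 and H3K27me3 in place of 1328.

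**Figure D4:**
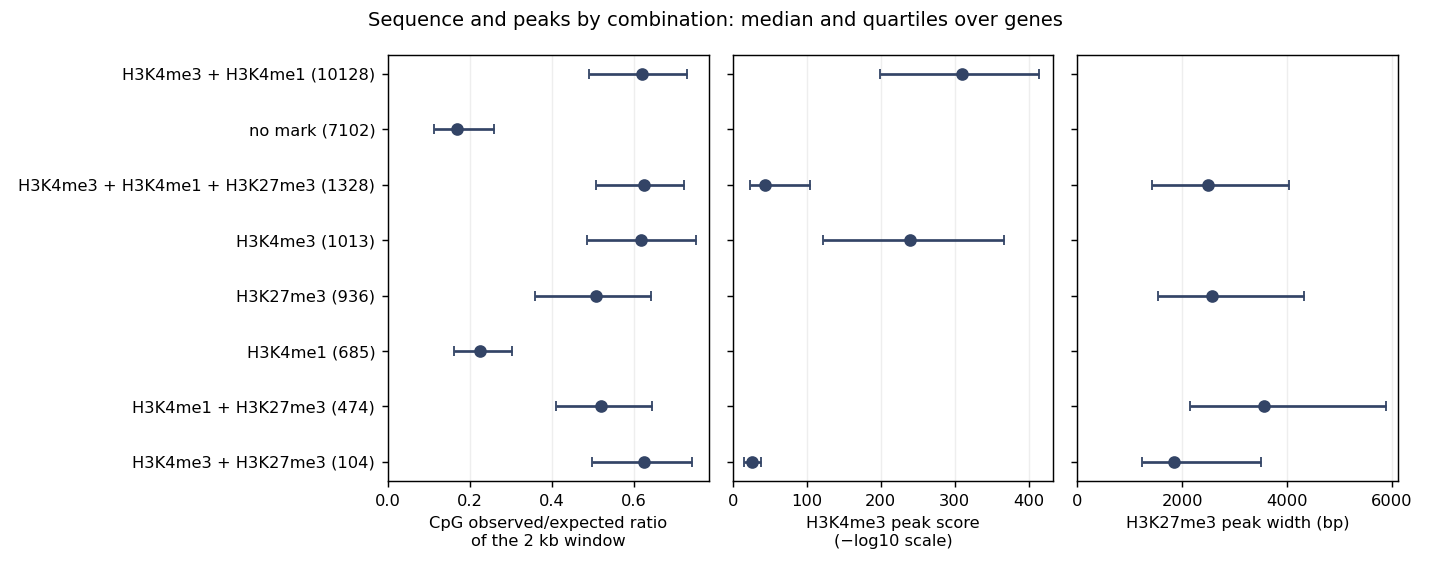
Medians (points) and quartiles (bars) over genes, by combination, of the CpG ratio of the promoter window, the score of the best H3K4me3 promoter peak (−log10 scale) and the width of the best H3K27me3 promoter peak in bp. H3K4me3 scores have a median of 44.4 at genes with H3K4me3, H3K4me1 and H3K27me3 and of 310.0 with H3K4me3 and H3K4me1, while their CpG ratios are 0.625 and 0.621.

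Genes were ranked by the lowest of the scores of their marks, each taken from the best peak at any start site, and for the first 5 this was the H3K4me1 or the H3K27me3 score. The leading genes with H3K4me3, H3K4me1 and H3K27me3 were Dgkz, a diacylglycerol kinase (47.0), Hey1, a Notch target (41.1), the potassium channel gene Kcng3 (40.0), Egr2, a zinc finger regulator of hindbrain and Schwann cells (39.5), and Specc1 (39.4). At Dgkz no start site carried all 3 marks, and its H3K4me3 and H3K27me3 peaks lay 10293 bp apart. At Hey1, Kcng3, Egr2 and Specc1 1 start site carried all of them, although the best-scoring H3K4me3 peak of Specc1 was at another start site than its best H3K27me3 peak. Of the 1328 genes with these marks, 80 had them at different start sites. The longest stretch shared by H3K4me3 and H3K27me3 was 3767 bp in Pmp22, a myelin protein gene, followed by 3400 bp in the kinesin gene Kif26b and 3086 bp in Wnt5a, a ligand of the gut mesenchyme. The Wnt5a stretch was the whole H3K4me3 peak, at chr14:28504535-28507620, inside an H3K27me3 peak of 11921 bp. In 39.7% of the 1731 overlapping pairs of these marks the H3K4me3 peak lay inside the H3K27me3 peak, and the reverse was found in 1.73%.

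Of the H3K27me3 peaks, 2595 overlapped H3K4me1 (34.1%, 33 to 35.2) and 1675 overlapped H3K4me3 (22%, 21.1 to 23). The order was the other way round when the larger extent of H3K4me1 was taken into account, since bases under H3K27me3 carried H3K4me3 5.1 times and H3K4me1 3.41 times as often as the genome. At promoters without H3K4me3, 477 of 1419 H3K27me3 genes carried H3K4me1 (33.6%, 31.2 to 36.1), against 686 of the 7821 genes with neither H3K4me3 nor H3K27me3 (8.77%, 8.16 to 9.42). Over peaks, both overlaps followed the H3K27me3 score. H3K4me1 was met by 72.5% of the best-scoring 10% of H3K27me3 peaks (69.3 to 75.6) and 14.8% of the lowest-scoring 10% (12.5 to 17.5), and H3K4me3 by 40.7% (37.3 to 44.3) and 8.92% (7.1 to 11.2). The H3K27me3 peaks of genes with H3K4me1 and H3K27me3 were 3558 bp wide at the median, and those of genes with H3K27me3 alone 2576 bp. A wider peak has more room to meet another, and the part of width in these shares was not tested. The longest shared stretches lay in Rfx4 (5799 bp), a brain transcription factor gene, Lhx1 (4574 bp), a kidney and neural regulator, and Lyl1 (4226 bp), a blood transcription factor gene. Rfx4 also led the genes with these marks by score (35.2), before Cyp24a1, which degrades vitamin D (34.3), Pax3, a neural crest regulator (33.5), Zfp57, whose protein protects imprints (32.4), and Ccdc177 (31.9). With H3K27me3 alone, the leading genes were Spag6, of cilia and sperm tails (62.5), Prdm12 and Prrxl1, of sensory neurons (53.3 and 50.1), Sox18, of vessels (52.7), and Uncx, of somites (48.1).

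The marks of the cell types of the crypt were then read from lists of genes. The lists were chosen with results of these data known, and the counts are to be read against all genes, of which 57.7% carried H3K4me3, 13.1% H3K27me3 and 32.5% no mark. All 23 proliferation genes carried H3K4me3 and none had H3K27me3, and 21 had H3K4me3 with H3K4me1. All 23 had high CpG promoters, and over all high CpG promoters 89.4% carried H3K4me3 and 17.7% H3K27me3. Mki67, the marker of dividing cells, had an H3K4me3 peak of 4044 bp with a score of 438.4, and Pcna, the replication clamp, had a score of 329.4. Of 7 inhibitors of cyclin-dependent kinases, which halt the cycle, all had H3K4me3, and 6 had high CpG promoters. H3K27me3 was found besides at Cdkn2a, over 15355 bp (52.7), and at Cdkn1c, over 2001 bp (11.3). Of 27 writers and erasers of these marks, of which 24 had high CpG promoters, 26 had H3K4me3 and none H3K27me3, and 11 had H3K4me3 alone, a combination of 4.64% of all genes, or 12.8% with a window of 500 bp. The Polycomb genes Ezh2, Eed and Suz12 were among the 11. All 76 ribosomal protein genes carried H3K4me3, with a median score of 460.4, and 69 of them had high CpG promoters. Of 17 stem cell genes, all had H3K4me3, 11 had H3K4me3 with H3K4me1 alone, and 4 had H3K27me3 in addition. This is 23.5% with an interval from 9.56 to 47.3 that holds the 13.1% of all genes, and with the better-scoring 50% of each list 2 of the 17 had H3K27me3 and 10 had H3K4me3. The 4 were Lgr5, the receptor that marks crypt base stem cells, Ascl2, the transcription factor of the same cells, Bmi1, a Polycomb subunit, and Msi1, an RNA-binding protein. At Lgr5 the H3K4me3 peak scored 71.2 over 2989 bp, the H3K4me1 peak 15.8 and the H3K27me3 peak 11.3 over 877 bp. At Ascl2 the scores were 85.2, 34.7 and 18.8, and at Bmi1 72.2, 20.7 and 29.0. Olfm4, another stem cell marker, had H3K4me3 (36.1) and H3K4me1 without H3K27me3.

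The 20 genes of mature enterocytes, the absorptive cells of the villus, all carried H3K4me3 in crypts, although only 10% of them had a high CpG promoter. Among all low CpG promoters H3K4me3 was found at 13.9%. With the better-scoring 50% of each list 9 of the 20 had H3K4me3. The enterocyte peaks were wide, with a median of 4155 bp against 1959 bp over all H3K4me3 promoters. Sis, the brush border sucrase-isomaltase, had an H3K4me3 peak of 5894 bp (score 178.9), Alpi, intestinal alkaline phosphatase, one of 3670 bp (148.4) and Fabp1, a fatty acid carrier, one of 3264 bp (128.9). Ada, adenosine deaminase, was the enterocyte gene with H3K27me3 (18.4) besides H3K4me3 (117.7). The transcription factors that keep intestinal identity had H3K4me3 at 17 of 18 genes (94.4% against 57.7% of all genes), with a median width of 5022 bp. At Cdx2, the master regulator of intestinal fate, the peak spanned 10486 bp with no H3K4me1 peak within the window, and at Gata4 10082 bp. Creb3l3 had no mark, and Prox1 had H3K4me3 (56.6), H3K4me1 and H3K27me3 (41.2). Enterocyte genes are also used by cells of the villus, and the part of any villus cells in the crypt preparation was not tested.

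The secretory lineage was mixed. All 10 genes of secretory fate and Notch signalling carried H3K4me3, and 4 carried H3K27me3 as well (40%, 16.8 to 68.7). High CpG promoters, which 9 of the 10 had, carried H3K4me3 at 89.4% and H3K27me3 at 17.7% over all genes, and the latter lies within that interval. The 4 were Atoh1, the master regulator of secretory cells, Gfi1, which acts after it, and the Notch targets Hes5 and Hey1. At Atoh1 the H3K27me3 peak spanned 7155 bp (score 32.5) around an H3K4me3 peak of 3769 bp (57.5), and at Gfi1 H3K27me3 spanned 13075 bp. Hes1 and Dll1, which act in dividing progenitors, had H3K4me3 scores of 391.3 and 477.4 without H3K27me3. Enteroendocrine genes carried H3K27me3 at 12 of 19 (63.2%, 41 to 80.9, against 13.1%) and H3K4me3 at 3 (15.8% against 57.7%), or at 0 with the better-scoring 50% of each list. Neurog3, which starts the endocrine programme, and the hormone genes Cck and Pyy had H3K4me1 with H3K27me3, and Chga, chromogranin A, had H3K27me3 alone. Of 12 tuft cell genes 5 had H3K27me3 (41.7%, 19.3 to 68, against 13.1%), including the master regulator Pou2f3 (18.3) and the marker Dclk1 (16). Goblet cell genes had H3K4me3 at 7 of 10, and the interval of this share (39.7 to 89.2%) holds the 57.7% of all genes. Of the 10, 7 had low CpG promoters and 1 a high one, and over all low CpG promoters 13.9% carried H3K4me3. The median H3K4me3 score of the 7 goblet cell genes with this mark was 28.8, against 279.6 over all H3K4me3 genes. Muc2, the main mucin, had H3K4me3 (25.9) and H3K27me3 (10.1). Paneth cell genes had no mark at 9 of 13 (69.2% against 32.5%), among them the alpha-defensin genes of the list, while Lyz1, Paneth lysozyme, had H3K4me1 alone (16.9). None of the 13 had a high CpG promoter and 10 had a low one, and over all low CpG promoters 77.1% had no mark.

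**Figure D5:**
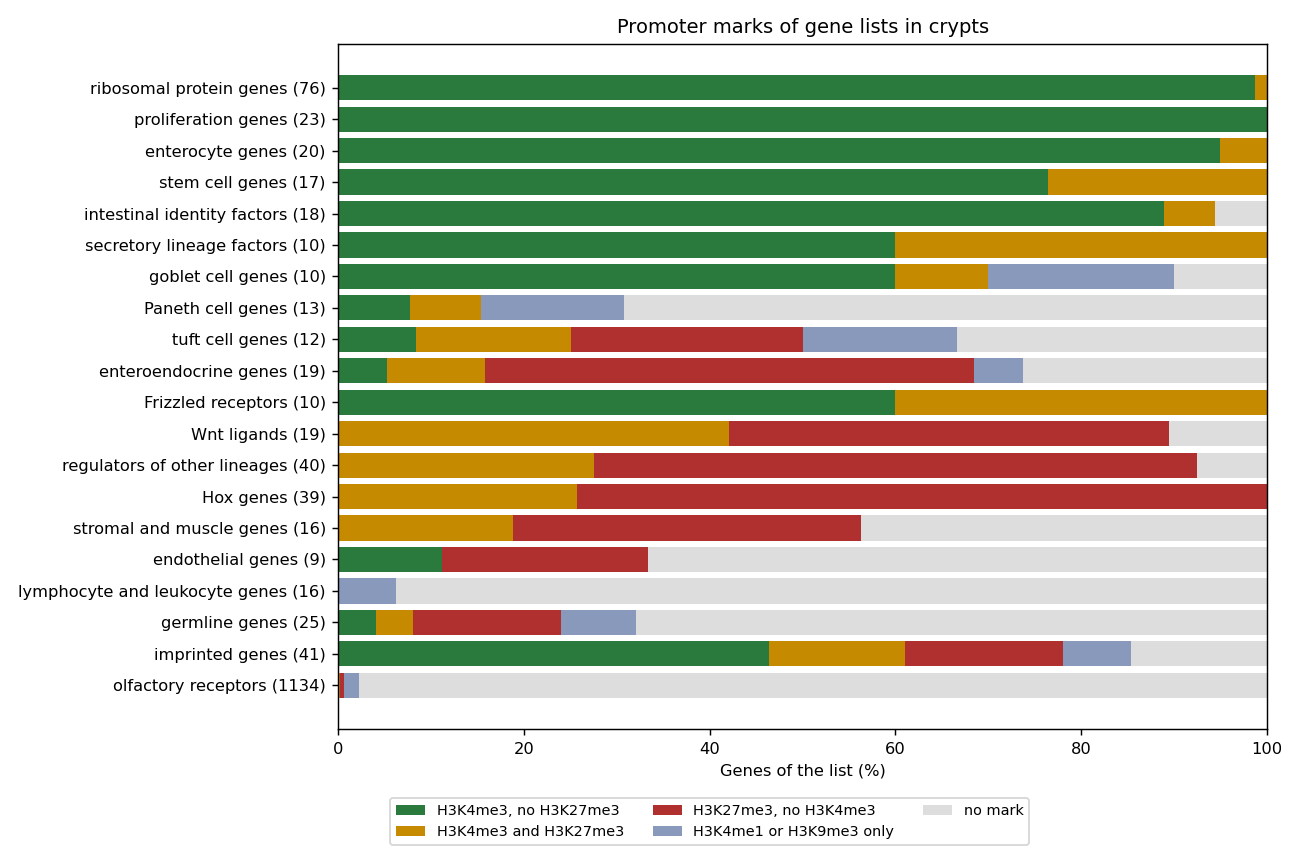
Genes of each list (number in brackets) by promoter marks, in percent of the list: H3K4me3 without H3K27me3, both, H3K27me3 without H3K4me3, H3K4me1 or H3K9me3 only, and no mark. The 23 proliferation genes have H3K4me3 without H3K27me3, and the 39 Hox genes all have H3K27me3.

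Lists of developmental genes carried H3K27me3 to differing extents. It was found at 37 of 40 regulators of other lineages, at all 39 Hox genes and at 17 of 19 Wnt ligands, against 13.1% of all genes. Among transcription factor families, some of whose members are also in the first list, it was found at 7 of 9 Pax, 11 of 16 T-box, 13 of 19 Sox and 21 of 44 Fox genes (47.7%, 33.8 to 62.1), and 17 of the Fox genes had H3K4me3 without H3K27me3. Of the 40 regulators, 16 had H3K27me3 alone, 10 had it with H3K4me1 and 10 with H3K4me1 and H3K4me3. The 11 regulators with H3K4me3 became 7 with the most upstream start site alone and 1 with the better-scoring 50% of each list. The peaks were wide, with a median of 13677 bp against 2619 bp over all H3K27me3 promoters. Olig2, a regulator of oligodendrocytes, lay under an H3K27me3 peak of 19888 bp without other marks. Gata2, a blood and endothelial regulator, had one of 16835 bp with H3K4me1 (23.8). Pax6, of the eye and the endocrine cells, had one of 35260 bp that scored 63.5, the highest H3K27me3 score in the list. Of the Hox genes 24 had H3K27me3 alone, 5 had H3K4me1 in addition, 5 H3K4me3 and 5 both. Neighbouring Hox genes shared peaks and are not independent, as with Hoxa10 and Hoxa5 under 1 peak of 56472 bp. The 5 with H3K4me3 and H3K27me3 but no H3K4me1 were neighbours in the Hoxb cluster, Hoxb4 and Hoxb6 to Hoxb9, and the H3K4me3 scores of Hoxb6 and Hoxb7 were 34.2 and 38.3. With the better-scoring 50% of each list 0 of the 39 Hox genes had H3K4me3.

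Ligands and receptors of Wnt signalling, the pathway that maintains crypt stem cells, differed in their marks. None of the 19 ligands had H3K4me3 without H3K27me3. Among Frizzled receptors 6 of 10 did, a share near the 51.1% of all genes. H3K4me3 was found at 8 of the ligands and all 10 receptors. H3K27me3 was found at 17 of the ligands and at 4 of the receptors (40%, 16.8 to 68.7), against 13.1% of all genes. All 10 receptors and 13 of the ligands had high CpG promoters, which carried H3K4me3 at 89.4% and H3K27me3 at 17.7% over all genes. Wnt3, the Paneth cell ligand, had H3K4me3 (28.7), H3K4me1 (14.1) and H3K27me3 (28.3). The same marks were found at Wnt5a, Wnt9b and other ligands, 8 in all, of which Wnt5b had H3K4me3 and H3K27me3 at start sites far apart (92304 bp between the peaks), and 7 ligands had H3K4me1 with H3K27me3. With the better-scoring 50% of each list 0 of the 19 ligands had H3K4me3. Fzd5, a receptor of the crypt epithelium, had an H3K4me3 peak of 8262 bp (368.5) with H3K4me1 and no H3K27me3. Fzd2 had H3K27me3 (11.3) besides H3K4me3 (93.6), and Fzd10 had H3K4me3 (13.3) with H3K27me3 (20.4).

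Genes of other cell types that a crypt preparation could hold had H3K4me3 less often than the 57.7% of all genes, and few of their promoters were rich in CpG. None of 16 lymphocyte and leukocyte genes had H3K4me3 (0 to 19.4%) or H3K27me3, and 15 had no mark. None of the 16 had a high CpG promoter and 13 had a low one, a type at which H3K4me3 was found in 13.9% of all genes and no mark in 77.1%. Of 16 stromal and muscle genes 9 had H3K27me3 (56.2%, 33.2 to 76.9, against 13.1%) and 3 had H3K4me3 (18.8%, 6.59 to 43), all 3 with H3K27me3, and 5 had a high CpG promoter. Vim, the intermediate filament of mesenchyme, had H3K27me3 over 7792 bp (31.8) with H3K4me3 (15.1) and H3K4me1, and Foxf1, a regulator of gut mesenchyme, had H3K27me3 (27.7) with H3K4me3 (43.1). Of 9 endothelial genes, 1 of them with a high CpG promoter, Esam had H3K4me3 (11.1%, 1.99 to 43.5), and Kdr and Erg had H3K4me1 with H3K27me3. Of the proteases the study examined in crypts and villi, Ctsl, the lysosomal cathepsin L, had H3K4me3 and H3K4me1 in crypts. The trypsin genes Prss1, Prss2 and Prss3 had no mark, although the study reported trypsins in crypts as well as in villi. Try4, Try5 and Try10, trypsin genes added here, had none either. Of these 7 genes 6 had low CpG promoters, a type with no mark at 77.1% over all genes. Olfactory receptors had no mark at 1109 of 1134 genes (97.8% against 32.5% of all genes). Low CpG promoters, which 1093 of them had, were without a mark at 77.1% over all genes.

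H3K9me3 stood apart from the other marks. Of the 2126 H3K9me3 peaks 2002 met none of them (94.2%, 93.1 to 95.1). H3K4me1 was met by 75 (3.53%, 2.82 to 4.4), H3K27me3 by 47 (2.21%, 1.67 to 2.93) and H3K4me3 by 12 (0.564%, 0.323 to 0.984). Bases under H3K9me3 carried H3K4me3 0.196 times and H3K4me1 0.345 times as often as the genome, and H3K27me3 2.24 times as often. H3K9me3 peaks lay outside protein-coding genes in 64.1% of cases and 45.5% of the bases of the median peak were masked as repeats, against 9.94% for H3K4me3. Of the 83 genes with H3K9me3, 33 had it alone. Of these 33, 12 were predicted genes with scores from 708.2 to 6785.8 that fell under 6 peaks, and the median share of repeats in their windows was 96.8%. The other 21 scored 10.1 to 43.1. Aligned reads were kept at 1 position each, also where several positions matched, so a score in repeated sequence does not belong to that copy alone.

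Of the 50 genes with H3K9me3 and another mark, 11 were zinc finger genes and 5 were imprinted genes, which are expressed from a single parental copy. Of 391 zinc finger genes 13 had H3K9me3 (3.32%, 1.95 to 5.6, against 0.38% of all genes). This count fell to 2 with the most upstream start site alone, to 4 with all marks at the same start site and to 6 with the better-scoring 50% of each list. The 5 imprinted genes were among 41 imprinted genes (12.2%, 5.32 to 25.5, against 0.38% of all genes), and 3 were left with the better-scoring 50% of each list and also with the most upstream start site alone. Peg3 and Usp29, which start next to each other on opposite strands, shared peaks of H3K4me3 (1226 bp, score 31.2), H3K27me3 (10.9) and H3K9me3 (2548 bp, 22.0). Gnas, of the stimulatory G protein, had peaks of the same marks with scores of 194.2, 16 and 11.9, but not at 1 start site. Its H3K27me3 and H3K9me3 peaks overlapped, and the H3K4me3 peak lay 25385 bp from H3K27me3 and 27256 bp from H3K9me3. Mest, a hydrolase gene, and Grb10, a growth inhibitor, had H3K27me3 with H3K9me3 and no H3K4me3. The H3K9me3 peak of Mest lay wholly within its H3K27me3 peak and shared 2363 bp, the longest stretch of these marks. The stretch shared by H3K4me3 and H3K9me3 at Peg3 was the longest of the 12, at chr7:6729147-6730372. The 300 bases at its middle (chr7:6729610-6729909, GRCm38, plus strand) are printed because they hold the letters TGCCGC, the core of the sequence bound by ZFP57 when methylated, on both strands, in capitals.
Peg3: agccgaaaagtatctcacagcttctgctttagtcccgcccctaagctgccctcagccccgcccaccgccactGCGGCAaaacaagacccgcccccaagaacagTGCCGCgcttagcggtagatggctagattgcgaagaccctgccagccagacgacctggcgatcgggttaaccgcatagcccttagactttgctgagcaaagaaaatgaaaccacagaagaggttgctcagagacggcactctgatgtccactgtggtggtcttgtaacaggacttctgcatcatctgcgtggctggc

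Each of the 12 stretches shared by H3K4me3 and H3K9me3 was searched for TGCCGC in the 300 bases centred on its middle. For stretches shorter than 300 bp the search reached beyond their ends. That of Peg3 was the only 1 with TGCCGC on either strand. The letters were found in the 300 bases centred on 18.5% of H3K4me3 peaks (17.9 to 19.1), 4.89% of H3K9me3 peaks and 7 of the 49 stretches shared by H3K27me3 and H3K9me3. The others of the 12 shared 44 to 647 bp and are named by the protein-coding gene they overlapped or lay nearest to. These genes were Zfp991, Tmem267, Csf2ra, Rftn2, Esp38, Sfi1, Crlf2, Zranb2, Dnaaf1, Stag3 and Orc2. The stretches named by Zfp991 and Esp38 lay 38784 and 106793 bp from these genes. At the Esp38 and Sfi1 stretches the H3K9me3 scores were 610.6 and 232.3, against 10 to 28.3 at the remaining ones. H3K9me3 and H3K4me3 were seldom at the same place. Of the 40 genes with both within their windows, the peaks overlapped at 11 (27.5%, 16.1 to 42.8), whereas H3K4me3 and H3K4me1 peaks overlapped at 99% of the genes that had both. Of the 24 genes with H3K4me3, H3K4me1 and H3K9me3, 17 had the marks at different start sites, and 8 were zinc finger genes, Zfp445 among them (H3K4me3 262.7, H3K9me3 25.7). ZFP445 protein is itself known to hold imprints.

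All 4 marks were found at 5 genes, at 4 of them at 1 start site. Stag3, a meiotic cohesin gene, and Gpc2, a glypican gene, start next to each other and shared all their peaks, with H3K4me3 at a score of 26.3, H3K4me1 at 19.7, H3K27me3 at 17.3 and H3K9me3 at 14.7. These peaks held the 134 bp of the genome under all marks. Fbxo17 and Zranb2 were the other two with a start site that had all marks, and at Zranb2 the H3K4me3 score was 400.3. At Ak4, an adenylate kinase gene, the H3K9me3 peak lay 26524 bp from the H3K4me3 peak, at another start site. Of 25 germline genes, 17 had no mark (68% against 32.5% of all genes). High CpG promoters, which 15 of the 25 had, were without a mark at 2.96% over all genes. H3K9me3 was found at 3 germline genes (12%, 4.17 to 30, against 0.38% of all genes). Brdt and Slc25a31 had it alone (10.7 and 14.7), and Stag3 was the third. The genes with H3K4me1, H3K27me3 and H3K9me3 were Coro2b, whose marks were at different start sites, Ppp1r36 and Zfp872. Mroh2a had H3K4me1 with H3K9me3. H3K27me3 with H3K9me3 was found at 6 genes, which besides Mest and Grb10 were Bglap3, Hapln2, Rbmxl2 and Tcfl5, and Pcdhgb7 joined Peg3, Usp29 and Gnas in carrying H3K4me3, H3K27me3 and H3K9me3.

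The X chromosome differed from the autosomes in its combinations. It makes up 6.18% of the assembled genome and held 2.64% of H3K4me3, 1.29% of H3K4me1, 0.565% of H3K27me3 and 0.423% of H3K9me3 peaks. Of 948 X genes 364 had H3K4me3 (38.4%, 35.4 to 41.5), against 59.1% of autosomal genes. Of these 364, 162 had H3K4me1 (44.5%, 39.5 to 49.6), against 92.5% of the 12245 autosomal genes with H3K4me3 (92 to 92.9). In all, 192 of the 1013 genes with H3K4me3 alone were on X, and 154 of the 10128 with H3K4me3 and H3K4me1. H3K27me3 was found at 26 X genes (2.74%) against 13.7% on autosomes. The median score of the best H3K4me3 promoter peak was 140.3 on X and 286.4 on autosomes, and that of H3K4me1 was 12.9 and 22.7, close to the list's minimum of 10. H3K4me3 peaks were found at 4 Y genes. The sex of the animals is not given in the labels, and the part of X copy number in these differences was not tested.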

How the data were processed

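Peak lists of H3K4me3, H3K4me1, H3K27me3 and H3K9me3 in crypts were used, 1 library per mark. Per the labels and the study's methods, the authors aligned spiked-in ChIP-seq (ChIP-Rx) reads to mm10 and dm6 with Bowtie 1.1.2, removed duplicates and called peaks with MACS2 2.1.1 against input. The authors called peaks with a p-value cutoff. Besides coordinates the deposited lists give a −log10 score with a minimum of 10, which is the −log10 of that cutoff, although the lists do not say whether the score is a p-value or a q-value. No counts were used and the depth is unknown, so no test was made. Overlaps (at least 1 bp), promoter windows of GENCODE M21 protein-coding start sites, CpG ratios, and 95% Wilson intervals were computed with Python 3.11.15, numpy 2.4.6 and pandas 2.3.3. Only the code for overlaps and promoter windows was tested on simulated intervals. A gene's score for a mark is that of its best peak in the window. Named genes were drawn from those of the lists and from the 5 genes per combination that led by the lowest of their marks' scores. They were also drawn from all genes of combinations with 5 or fewer, and from the 3 longest shared stretches for each pair of marks. Not every gene that met these rules is named. Others with H3K9me3 were named after their values were seen. The combinations and lists were chosen with earlier results of these data known. Alternatives were a shared length of 50%, the better-scoring 50% of each list, lists of equal size, merged peaks, windows of 500 bp and 2 kb, the most upstream start site, marks at the same start site and autosomes only.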

Additional observations from a re-analysis of the deposited data

How the results depend on the processing

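With the better-scoring 50% of each list, H3K4me3 peaks overlapping H3K4me1 numbered 5111, those overlapping H3K27me3 44, H3K27me3 peaks overlapping H3K4me1 901, and H3K9me3 peaks overlapping H3K4me3, H3K4me1 and H3K27me3 1, 20 and 18. In the same order, lists of equal size gave 95, 1, 14, 0, 9 and 16, and a shared length of at least 50% of each peak gave 4207, 131, 457, 1, 2 and 7. Fewer peaks entered the first pair of settings, and longer overlap was asked for in the last. Merging peaks less than 1 kb apart and leaving out X and Y kept each of these counts within 1.5 times. Among promoters, the better-scoring 50% left 5210 genes with H3K4me3 and H3K4me1, 85 with H3K27me3 added, 33 with H3K4me3 and H3K27me3 and 55 with H3K9me3, and raised H3K4me3 alone to 3605 and H3K4me1 alone to 1735. The window of 500 bp gave 2787 genes with H3K4me3 alone, and the most upstream start site gave 51 with H3K9me3. The other combinations of at least 100 genes stayed within 1.5 times of their counts under every setting listed, as did 97 of 114 counts of list genes. Hox genes, Wnt ligands and enteroendocrine genes with H3K4me3, 10, 8 and 3, were all at 0 with the better-scoring 50%. No paired analysis was possible because each mark has a single library. The unknown depth and the unstated filter behind the gaps in peak numbering limit what the absence of a peak can show.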
